A study of Mus musculus with 8 samples.

Results

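The Hox genes encode homeodomain transcription factors and lie in 4 clusters, Hoxa, Hoxb, Hoxc and Hoxd, in which neighbouring genes share an orientation and are numbered in order along the chromosome. Accessibility at these clusters was described in hematopoietic stem cells (HSCs) of young and old mice. A peak belonged to a cluster when it lay fully inside 1 of 4 fixed mm9 intervals. These began and ended at 52.1 and 52.22 Mb of chromosome 6 for Hoxa, 96.05 and 96.24 Mb of chromosome 11 for Hoxb, 102.74 and 102.88 Mb of chromosome 15 for Hoxc, and 74.49 and 74.615 Mb of chromosome 2 for Hoxd. The rule took 133 of 126871 peaks, of which 30 lay in Hoxa, 44 in Hoxb, 30 in Hoxc and 29 in Hoxd. No peak crossed an edge of an interval. The intervals were set by position and not by measured values, although the members were chosen with earlier results of these data known.

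The data were 4 old and 4 young libraries of bulk ATAC-seq, an assay in which a transposase inserts adapters where DNA is exposed, and more reads over a peak mean more exposed DNA. All cells came from bone marrow of C57BL/6 mice and had the sort phenotype LSKCD150+CD48-: they lack lineage markers and have Sca-1 and Kit, and were gated further on a pair of SLAM-family receptors. The labels give neither the ages and sex of the mice nor whether a library came from its own animal or a pool. P-values are thus set by library-to-library spread alone, and part of that may be technical. Whatever else differed between the old and the young libraries cannot be told apart from age.

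Within a cluster, genes at the low-number end are active in anterior parts of the embryo and genes at the high-number end in posterior parts. Active Hox chromatin is maintained by trithorax-group proteins such as Kmt2a, and silent Hox chromatin by Polycomb complexes. In blood stem cells the best known members are in Hoxa and Hoxb. Hoxa9 supports the growth of stem and progenitor cells and takes part in leukemia, forced Hoxb4 expands stem cells, and Hoxb5 has been used to mark long-term HSCs. Hoxc and Hoxd genes are better known from the axial skeleton, skin and limbs.

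By the GRCm38 gene order, in which all 38 listed genes were found, the 10 listed Hoxa genes ran from Hoxa2 to Hoxa13 with rising coordinate. The other clusters ran the opposite way, from Hoxb13 to Hoxb1 (10 genes), from Hoxc13 to Hoxc4 (9 genes) and from Hoxd13 to Hoxd1 (9 genes). Peaks could not be assigned to single genes or promoters, and no peak sequence is shown, because no genome or annotation of the mm9 build was used here. For the same reason, markers of HSCs and of other marrow cells were not examined.

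Totals ran from 4200905 to 5129684 counts per library. One old library, replicate 4, differed most from its group, with a mean correlation over peaks of 0.919 to the rest of the old group and 0.907 to the young group. Results are therefore also given without it where that changed them. The young libraries correlated with each other at 0.933 to 0.940. Levels below are in CPM, counts scaled to a common library size with TMM factors. A peak was called when edgeR's quasi-likelihood test, fitted on all 73164 peaks that passed a filter on low counts, gave a Benjamini-Hochberg adjusted p below 0.05. Log2 fold changes are old relative to young.

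The clusters differed from each other in how open they were. Per kilobase of interval, summed levels in young libraries were 2.46 ± 0.16 CPM in Hoxa, 1.33 ± 0.11 in Hoxb, 0.584 ± 0.0644 in Hoxd and 0.384 ± 0.0697 in Hoxc (SD, n = 4). In that order no neighbouring pair overlapped between libraries of the young group. In old libraries Hoxa had 2.69 ± 0.11 CPM per kilobase and Hoxb 1.5 ± 0.08, while Hoxd, from 0.648 to 0.806, and Hoxc, from 0.557 to 0.715, overlapped. Peaks were dense in all 4, with 25 per 100 kb in Hoxa, 23.2 in Hoxb, 21.4 in Hoxc and 23.2 in Hoxd. Over the genome, 100 kb windows holding any peak had a median of 5 peaks and a 95th percentile of 16. Hox peaks were narrower than most, with a median width of 334 bases against 408 over all peaks, and close to the middle in strength, with a median level of 2.67 CPM against 2.76.

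Strong peaks were concentrated in Hoxa and Hoxb. Of the 20 Hox peaks with a mean level above 10 CPM, 11 lay in Hoxa, 8 in Hoxb, 1 in Hoxc and 0 in Hoxd. The median peak stood at the 67.3 percentile of strength of all peaks in Hoxa and at 61.1 in Hoxb, against 36.7 in Hoxc and 40.6 in Hoxd. Accordingly 24 of 30 Hoxa peaks and 33 of 44 Hoxb peaks passed the count filter, but only 10 of 30 in Hoxc and 14 of 29 in Hoxd, 81 in all. A filter of this kind can pass a weak peak through the group in which it is high. Sums over a cluster below therefore use every peak, tested or not.

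In old HSCs the Hoxc cluster was more open as a whole. By ratio of old to young sums, Hoxd was higher by less, and Hoxa and Hoxb, the open clusters, by least. In CPM the order was another. Mean sums went from 53.7 in young to 88.2 in old libraries in Hoxc, and from 253 to 286 in Hoxb. They went from 295 to 323 in Hoxa and from 73.0 to 90.9 in Hoxd. The summed level of Hoxc was 91.1, 83.7, 100.1 and 77.9 CPM in old replicates 1 to 4 and 67.2, 46.3, 54.8 and 46.7 CPM in young replicates 1 to 4. All old libraries lay above all young ones, and young replicate 1 was the closest to the old group. The means were 88.2 ± 9.59 in old and 53.7 ± 9.76 in young libraries (mean ± SD of 4 libraries each), a ratio of 1.64. On the log2 scale this ratio is 0.72. The nearest scale tested over the genome was that of 100 kb windows. Their log2 fold changes had a median of -0.00507 and a 95th percentile of 0.985.

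Hoxd had 94.2, 87.5, 100.8 and 81.0 CPM in the old libraries and 67.4, 65.2, 82.3 and 77.1 in the young ones, a ratio of 1.25 between means. Here the groups overlapped, since young replicate 3 exceeded old replicate 4. Hoxb had 281, 302, 293 and 266 CPM in old and 278, 257, 246 and 231 in young libraries, a ratio of 1.13. Hoxa had 326, 326, 335 and 303 CPM in old and 291, 316, 303 and 270 in young libraries, a ratio of 1.09. In both of these clusters the highest young library lay above the lowest old one, which was replicate 4. Every old library other than replicate 4 lay above all young ones in Hoxa, Hoxb and Hoxd alike, narrowly in Hoxb. Among the 4 clusters, separation of the groups was thus particular to Hoxc only when old replicate 4 was counted. The summed peaks beside Hoxc, described below, were separated as well.

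**Figure D1:**
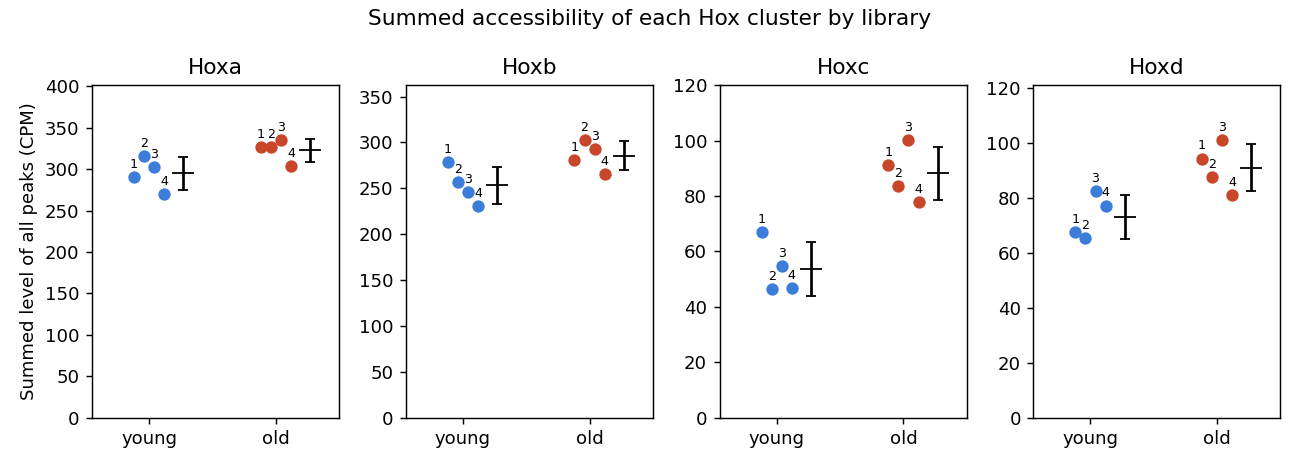
Summed CPM of all peaks in each Hox interval (vertical axis, starting at 0, with its own range in each panel) for the 4 young and 4 old libraries; numbers are replicate numbers and the cross with bars is the mean ± SD. The Hoxc groups are separated, with the lowest old library at 77.9 and the highest young library at 67.2 CPM. The groups overlap in the other 3 clusters, in each only through old replicate 4.

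A test at this scale came from counts summed in fixed 100 kb windows over the whole genome. Of 16763 tested windows 29.1% were called, 14.4% higher and 14.7% lower in old. Of the 11 windows that overlap a Hox interval 4 were called, all higher, both of those in Hoxc and 2 of 3 in Hoxd, and 0 of 3 each in Hoxa and Hoxb. One of the Hoxa windows, which starts at 52000001, touched the interval only at its edge and held 0 Hox peaks. Levels within windows were scaled separately from those of peaks.

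The Hoxc window from 102700001 to 102800000 on chromosome 15 held 13 peaks, all of them Hoxc members. Its level was 26.0, 26.5, 31.3 and 24.6 CPM in old and 17.2, 14.7, 18.1 and 13.9 CPM in young libraries, without overlap. The log2 fold change was 0.77 ± 0.14 (± SE, adjusted p = 0.000459 by edgeR). The next window, from 102800001 to 102900000, held 17 Hoxc peaks and 5 others and rose from 42.5 ± 8.08 to 66.0 ± 6.89 CPM (mean ± SD of 4 libraries each). Its log2 fold change was 0.64 ± 0.12 (± SE, adjusted p = 0.000805 by edgeR). Among all tested windows, the 2 values stood at the 92.7 and 90.7 percentiles of log2 fold change, and 1222 windows had a larger one than the first. Both Hoxc calls held with each library left out in turn, with log2 fold changes of 0.70 to 0.83 and of 0.55 to 0.76.

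In Hoxd the window from 74500001 to 74600000 on chromosome 2, with 22 peaks that were all members, rose from 58.1 ± 4.83 to 68.4 ± 4.31 CPM (mean ± SD of 4 libraries each). All 4 old libraries lay above all 4 young ones, by a margin of 62.9 against 62.1 CPM at the closest. The log2 fold change was 0.24 ± 0.08 (± SE, adjusted p = 0.0322 by edgeR). The window from 74600001 to 74700000 rose by 0.42 ± 0.15 on the log2 scale (± SE, adjusted p = 0.0391 by edgeR), but only 2 of its 3 peaks were members. The outside peak, from 74663473 to 74664556, had 17.6 ± 2.42 CPM in old and 14.7 ± 1.70 in young libraries, against 24 ± 3.59 and 17.9 ± 2.73 CPM for the window. Both Hoxd calls were lost when any of several single libraries was left out: old replicates 1 and 3 and young replicates 1 and 2 for both, old replicate 2 for the first, and young replicate 4 for the second. Adjusted p was then 0.0558 to 0.0981 for the first window and 0.0806 to 0.129 for the second.

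The window with most of Hoxa, from 52100001 to 52200000 on chromosome 6, had 293 ± 11.1 CPM in old and 274 ± 17.7 in young libraries (mean ± SD of 4 libraries each), a log2 fold change of 0.09 ± 0.05 (± SE, adjusted p = 0.154 by edgeR). That with most of Hoxb, from 96100001 to 96200000 on chromosome 11, had 214 ± 8.10 and 196 ± 16.9 CPM, a log2 fold change of 0.13 ± 0.06 (± SE, adjusted p = 0.0881 by edgeR). Neither passed the main test with all 8 libraries. With replicate number added as a term, the Hoxb window passed (adjusted p = 0.0356 by edgeR) and the Hoxa window did not (adjusted p = 0.0839 by edgeR). Without old replicate 4 both passed, at 0.12 (adjusted p = 0.0479 by edgeR) and 0.15 (adjusted p = 0.0343 by edgeR). The Hoxb window also passed without young replicate 1 (adjusted p = 0.038 by edgeR).

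Peak by peak, 11 of the 81 tested Hox peaks were called higher in old and 0 lower, where 10% of all tested peaks were called higher and 10.4% lower. In total 13.6% of tested Hox peaks were called, below the 20.5% of all tested peaks. The share called higher was thus near the background. At an unadjusted p below 0.05 in the same edgeR fit, 17 Hox peaks were higher and 0 lower, against 16.5% and 16.7% of all tested peaks. DESeq2 and limma voom also called 0 lower, and 7 and 10 higher. Of all 73164 tested peaks DESeq2 called 4993 higher and 5215 lower, 14.0% in all. Limma voom called 7127 higher and 7818 lower, 20.4% in all. By cluster, calls numbered 2 of 24 tested in Hoxa, 3 of 33 in Hoxb, 5 of 10 in Hoxc and 1 of 14 in Hoxd. The Hoxc share rests on the filter: with no filter the Hoxc calls were 5 of 30, or 16.7%, all higher, against 16.1% of all peaks in either direction. Of all 126871 peaks, 10733 were then called higher and 9753 lower. Without old replicate 4, 15 Hox peaks were called higher and 0 lower, among them 7 of 11 tested in Hoxc, when 30.0% of all tested peaks were called.

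Median log2 fold changes of the tested peaks were 0.08 in Hoxa, 0.20 in Hoxb, 0.85 in Hoxc and 0.28 in Hoxd, against 0.01 over all tested peaks. Values were positive in 61 of the 81, or 75.3%, against 51.0% of all tested peaks. Counting every member, tested or not, the mean level was higher in old than in young libraries at 97 of 133 peaks, or 72.9%, against 47.5% of all peaks in the table. This was so for 18 of 30 in Hoxa, 30 of 44 in Hoxb, 24 of 30 in Hoxc and 25 of 29 in Hoxd. In 13 tested Hox peaks all old libraries lay above all young ones and in 0 below, where 10.5% of all tested peaks were above and 10.6% below, 21.1% in all. Of these 13 peaks, 7 were in Hoxc.

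**Figure D2:**
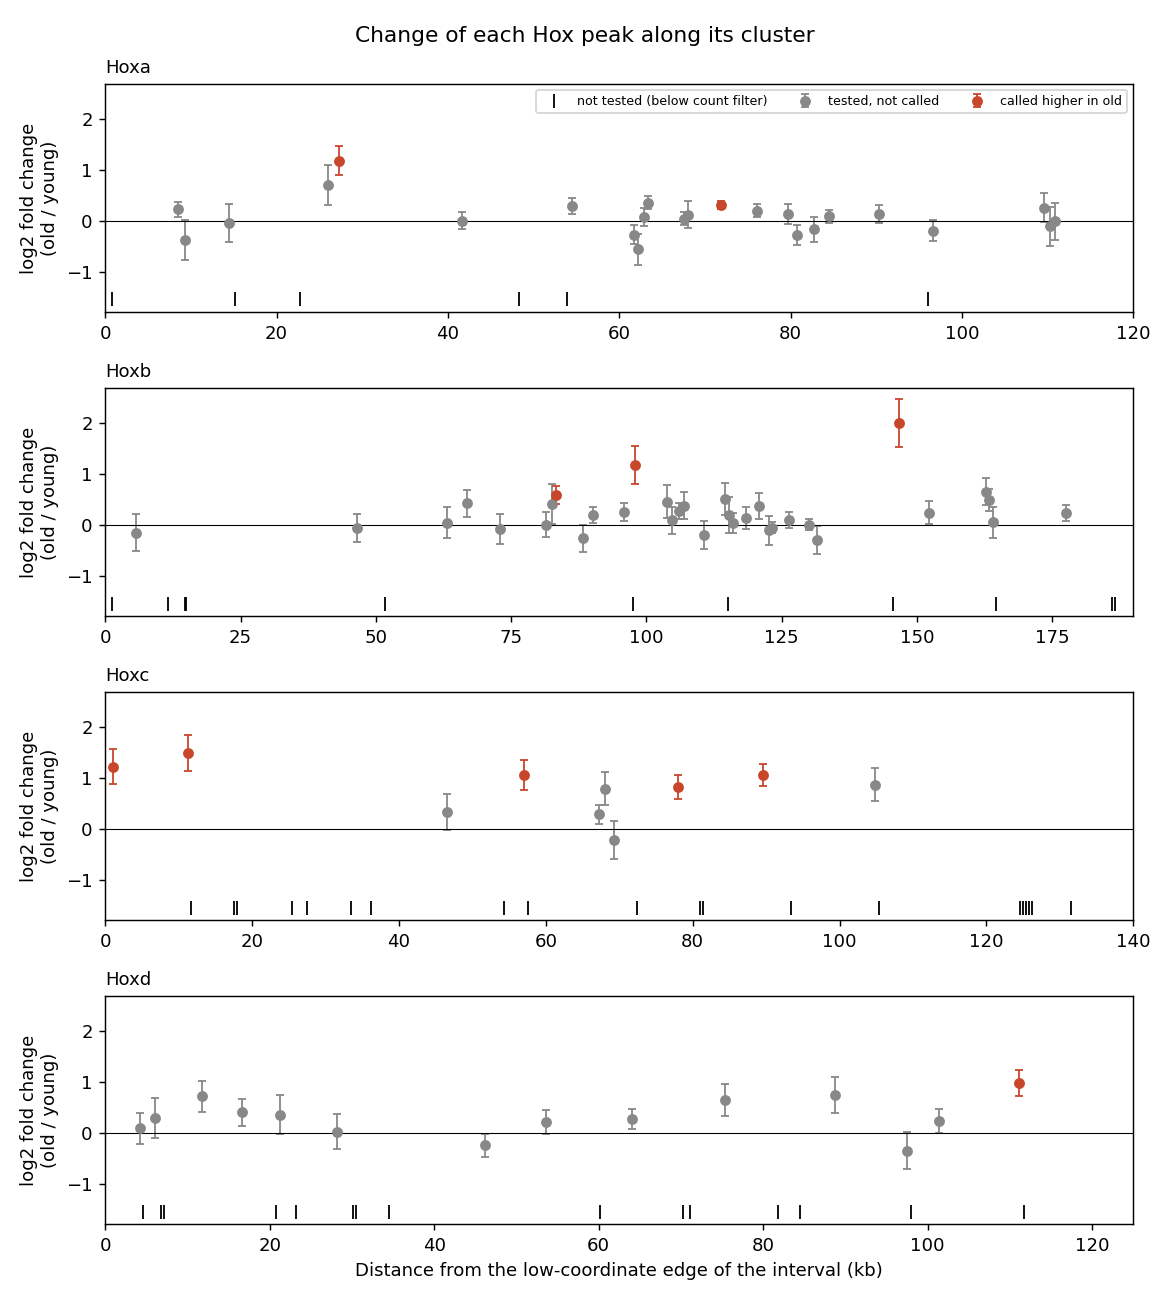
Log2 fold change (old relative to young, ± SE) of each tested Hox peak against the distance of its midpoint in kb from the low-coordinate edge of its interval; red marks the 11 called peaks and ticks at the bottom mark the 52 members below the count filter. Called Hoxc peaks are spread from 1 edge of the interval to beyond its middle. Hoxa and Hoxb points have lower medians, 0.08 and 0.20 against 0.85 in Hoxc, with 15 of 24 and 25 of 33 points above 0.

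In Hoxc the called peaks were spread along the interval, with log2 fold changes of 0.82 to 1.49. The strongest and widest Hoxc peak, 1134 bases from 102829081 to 102830214, had 20.1, 13.3, 18.7 and 15.1 CPM in old and 12.6, 6.31, 8.0 and 5.39 CPM in young libraries. The groups were close at their edges, because young replicate 1 came near old replicate 2. The log2 fold change was 1.06 ± 0.22 (± SE, adjusted p = 0.00251 by edgeR), and the peak alone held 17.5% of the summed Hoxc level. Without it the log2 ratio of the cluster sum moved only from 0.72 to 0.65.

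The peak from 102751040 to 102751481 changed most among the Hoxc calls. It had 3.31, 4.42, 5.30 and 3.72 CPM in old and 1.63, 1.68, 2.0 and 0.646 CPM in young libraries, from 75 and 26 counts in all. The groups did not overlap, and the log2 fold change was 1.49 ± 0.35 (± SE, adjusted p = 0.00427 by edgeR). At the low-coordinate edge, which in the gene order is the Hoxc13 end, the peak from 102740565 to 102741516 had 5.35, 3.79, 3.0 and 2.89 CPM in old and 1.63, 2.10, 1.5 and 1.08 CPM in young libraries. Its log2 fold change was 1.22 ± 0.35 (± SE, adjusted p = 0.0156 by edgeR), and it was no longer called without old replicate 1 (adjusted p = 0.0725 by edgeR) or without young replicate 4 (adjusted p = 0.0545 by edgeR).

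The peak from 102817654 to 102818391 showed the least spread between libraries, at 5.86, 5.68, 5.30 and 6.00 CPM in old and 3.26, 3.16, 2.75 and 3.66 CPM in young libraries. This is a log2 fold change of 0.82 ± 0.24 (± SE, adjusted p = 0.0202 by edgeR), lost without young replicate 3 (adjusted p = 0.0554 by edgeR). The peak from 102796828 to 102797248 had 4.58, 4.0, 8.76 and 5.79 CPM in old and 3.50, 2.53, 2.25 and 2.80 CPM in young libraries, so that old replicate 3 stood highest. Its log2 fold change was 1.05 ± 0.30 (± SE, adjusted p = 0.0146 by edgeR) and was lost without that library (0.80; adjusted p = 0.0822 by edgeR).

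Of the 5 tested Hoxc peaks that were not called, 4 had positive log2 fold changes. The second strongest Hoxc peak, from 102806765 to 102807818, was among them, with 8.96 ± 1.39 CPM in old and 7.37 ± 0.442 in young libraries (mean ± SD of 4 libraries each). All old libraries lay above all young ones there, narrowly, and the log2 fold change was 0.28 ± 0.19 (± SE, adjusted p = 0.328 by edgeR). The other 20 Hoxc peaks did not pass the count filter, and the 5 Hoxc calls made with no filter were the same 5 peaks as above. Their summed level was 29.0, 30.5, 36.2 and 25.2 CPM in old and 24.5, 15.4, 21.0 and 19.6 CPM in young libraries, from 538 and 353 counts. These sums did not overlap either, although the lowest old and highest young libraries were close, and 15 of the 20 had the higher mean in old.

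Divided into 20 kb segments, Hoxc was higher in old in all 7 segments, by ratios of 1.33 to 1.94, and in 4 of them all old libraries lay above all young ones. The largest ratio was in the segment at the low-coordinate edge, at 10.4 ± 0.667 CPM in old against 5.39 ± 1.35 in young libraries (mean ± SD of 4 libraries each). The smallest was between 102800001 and 102820000, at 22.7 ± 0.66 against 17.1 ± 2.39 CPM. In no segment of Hoxa, Hoxb or Hoxd were the groups separated in this way. Old replicate 4 was the only old library not above all young ones in the Hoxa segment from 52160001 and the Hoxd segment from 74590001. The same held for the Hoxb segments from 96130001 and 96190001. The share of separated segments over the genome was not computed. Ratios by segment ran from 0.998 to 1.55 in Hoxa, from 0.713 to 1.43 in Hoxb and from 1.01 to 1.54 in Hoxd.

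**Figure D3:**
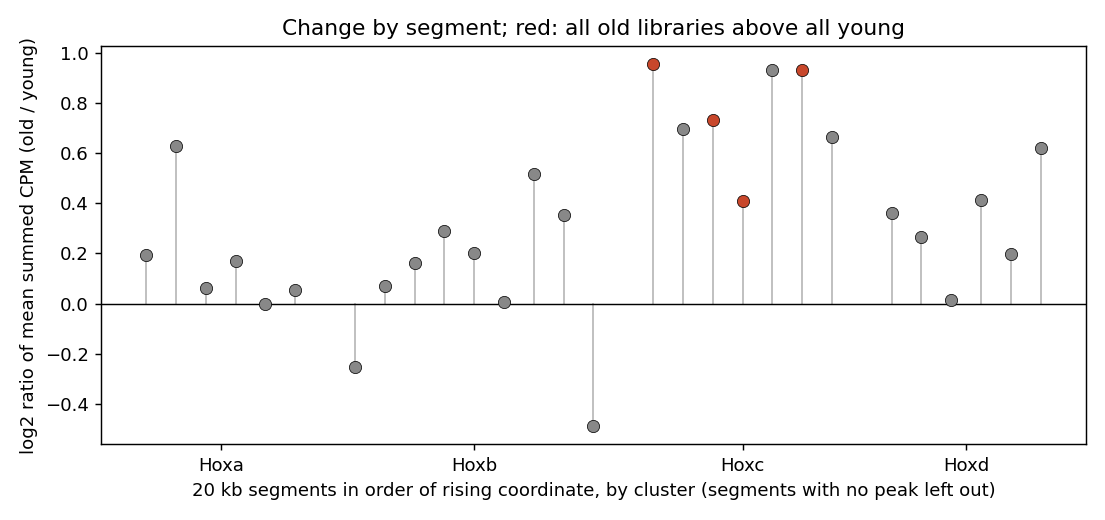
Log2 ratio of mean summed CPM (old to young) in successive 20 kb segments of each interval, in order of rising coordinate; each point is 1 segment and red points are segments in which all 4 old libraries lie above all 4 young ones. All 7 Hoxc points lie above 0 and 4 are red, and no point of the other clusters is red. Old replicate 4 alone keeps some of those points from being red, and the share of red segments over the genome was not computed.

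Chromatin beside Hoxc was higher in old by a smaller ratio. The 68 peaks within 250 kb outside the Hoxc interval summed to 597 ± 13.3 CPM in old and 543 ± 13.4 in young libraries (mean ± SD of 4 libraries each), a ratio of 1.10 against 1.64 inside. All old libraries lay above all young ones there as well, with the lowest old sum at 584 CPM and the highest young sum at 554. Of 41 tested peaks in these flanks, 2 were called higher and 0 lower, with a median log2 fold change of 0.12. The nearest peak below the interval lay 101941 bases away and the nearest above it 3549 bases away, at 1.0 ± 0.50 CPM in old and 1.12 ± 0.48 in young libraries. The last Hoxc peak, from 102871272 to 102871865, lay 8135 bases inside that upper edge and had 2.15 ± 0.619 and 0.920 ± 0.404 CPM. Neither the last Hoxc peak nor the nearest peak above the interval passed the count filter. The difference between the interval and its surroundings was not tested. Flanking ratios of the other clusters were 1.03 for Hoxa, 1.05 for Hoxb and 1.155 for Hoxd, the last from 11 peaks.

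In Hoxd a single peak was called, from 74600708 to 74601549, toward the Hoxd1 end of the gene order. It had 8.91, 6.52, 9.23 and 5.79 CPM in old and 2.80, 2.95, 5.50 and 4.09 CPM in young libraries. The groups did not overlap, and the log2 fold change was 0.99 ± 0.26 (± SE, adjusted p = 0.0104 by edgeR). The call held with each library left out in turn. Of the 13 other tested Hoxd peaks 11 had positive log2 fold changes, up to 0.74, and 2 negative ones, down to -0.35.

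The strongest Hoxd peak, from 74553798 to 74554415, had 9.14 ± 0.565 CPM in old and 7.59 ± 1.47 in young libraries (mean ± SD of 4 libraries each), and its log2 fold change of 0.27 ± 0.19 did not pass (± SE, adjusted p = 0.350 by edgeR). The widest, from 74542992 to 74544077, had 7.72 ± 1.77 and 6.66 ± 1.62 CPM, also without a call (adjusted p = 0.563 by edgeR). The peak from 74587283 to 74587693 went the other way, at 6.87, 3.58, 4.15 and 7.03 CPM in old and 7.0, 3.16, 5.0 and 12.3 CPM in young libraries. Its negative value, -0.35 ± 0.37 (± SE, adjusted p = 0.550 by edgeR), came from young replicate 4 and turned to 0.10 without it. The 15 untested Hoxd peaks summed to 20.2 ± 2.63 CPM in old and 15 ± 5.17 in young libraries, with overlap.

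In Hoxa the strongest of all Hox peaks was called, with a small change. This peak, 1055 bases from 52171367 to 52172421, stood at the 96.7 percentile of strength in the table. It had 48.1, 53.0, 56.3 and 52.3 CPM in old and 41.0, 46.9, 41.3 and 40.3 CPM in young libraries. The lowest old library thus exceeded the highest young one by little, and the log2 fold change was 0.31 ± 0.08 (± SE, adjusted p = 0.0107 by edgeR). The other call, from 52126966 to 52127637, was a weaker peak with a larger change. It had 7.64, 6.73, 6.23 and 4.75 CPM in old and 1.40, 4.0, 3.0 and 2.59 CPM in young libraries, and thus a log2 fold change of 1.18 ± 0.29 (± SE, adjusted p = 0.00621 by edgeR). Both calls held with each library left out in turn.

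The other strong Hoxa peaks were open in both groups. The peak from 52183810 to 52185117 had 30.9 ± 2.94 CPM in old and 29.1 ± 5.87 in young libraries (mean ± SD of 4 libraries each; adjusted p = 0.665 by edgeR). The widest Hox peak, 1628 bases from 52140856 to 52142483, had 13.9 ± 0.740 and 13.8 ± 2.82 CPM (adjusted p = 0.989 by edgeR). The peak from 52163135 to 52163607 had 28.7 ± 3.87 in old and 22.6 ± 3.09 CPM in young libraries and just missed the threshold, with a log2 fold change of 0.35 ± 0.13 (± SE, adjusted p = 0.0546 by edgeR). Without old replicate 4 it was 0.45 and passed (adjusted p = 0.006 by edgeR), as it did without young replicate 3 (adjusted p = 0.0412 by edgeR).

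A weak Hoxa peak outside the naming rule, singled out after its values were seen, was the only Hox peak called lower under any alternative that was run. It lies from 52148201 to 52148476 and had 1, 2, 0 and 1 counts in old and 9, 4, 10 and 7 counts in young libraries. It did not pass the count filter. With no filter its log2 fold change was -2.76 ± 0.66 (± SE, adjusted p = 0.00498 by edgeR). The 6 untested Hoxa peaks together had 148 counts in old and 167 in young libraries.

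In Hoxb 3 peaks were called, all of them apart from the strongest ones. The largest log2 fold change among the 81 tested Hox peaks was at a weak one, from 96196509 to 96196902. It had 4.58, 5.47, 3.0 and 2.69 CPM in old and 1.40, 1.89, 0.250 and 0.215 CPM in young libraries, from 70 and 17 counts in all. Young replicates 3 and 4 had 1 count each, and the groups did not overlap. The log2 fold change was 2.0 ± 0.47 (± SE, adjusted p = 0.00467 by edgeR), and the call held with each library left out in turn.

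The Hoxb peak from 96132725 to 96133808 had 13.5, 11.8, 16.6 and 12.4 CPM in old and 11.4, 9.05, 8.25 and 7.32 CPM in young libraries. Its log2 fold change of 0.59 ± 0.18 (± SE, adjusted p = 0.0271 by edgeR) was called with only 4 of the 8 libraries left out in turn. It was lost without old replicates 1 or 3 or young replicates 3 or 4 (adjusted p = 0.0547 to 0.103 by edgeR). The narrow peak from 96147777 to 96147990 had 3.82, 4.0, 4.38 and 1.86 CPM in old and 1.40, 2.31, 1.25 and 1.08 CPM in young libraries. Old replicate 4 lay within the young range there. The log2 fold change was 1.18 ± 0.37 (± SE, adjusted p = 0.0276 by edgeR), a call that held only without old replicate 4 and without young replicate 2 when libraries were left out (adjusted p up to 0.092 by edgeR).

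The 2 strongest Hoxb peaks had nearly equal means in old and young. The peak of 1218 bases from 96179465 to 96180682 had 28.5, 25.7, 24.7 and 26.9 CPM in old and 23.3, 26.3, 29.3 and 26.7 CPM in young libraries, and thus a log2 fold change of 0.0016 ± 0.11 (± SE, adjusted p = 0.993 by edgeR). The peak from 96172902 to 96173656 had 24 ± 1.94 CPM in old and 25 ± 1.08 in young libraries (mean ± SD of 4 libraries each; adjusted p = 0.761 by edgeR). The third, from 96155599 to 96156567, had 20.6 ± 2.15 and 17.2 ± 4.47 CPM (adjusted p = 0.260 by edgeR). Both of the first lay in the segment from 96170001 to 96190000, the most open of Hoxb, whose sum was 79.2 ± 2.59 CPM in old and 78.9 ± 3.08 in young libraries. The 30 tested Hoxb peaks that were not called ranged from -0.30 to 0.65 in log2 fold change, and the 11 untested ones summed to 13.8 ± 0.797 and 13.8 ± 1.56 CPM.

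**Figure D4:**
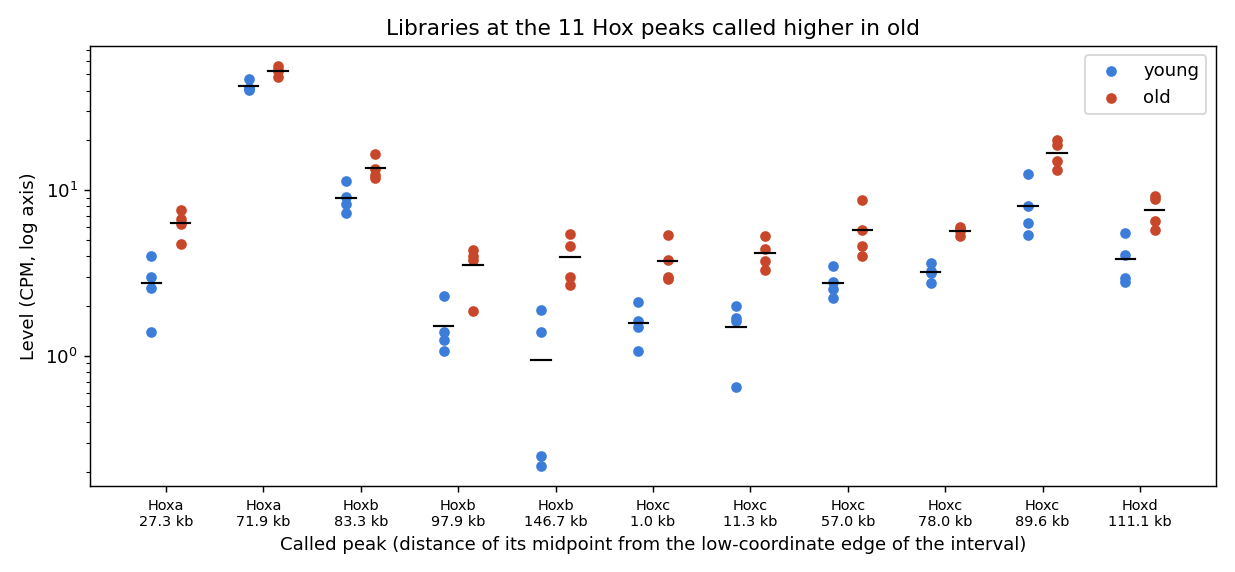
Level in CPM (log axis) of each library at the 11 called Hox peaks; each point is 1 library, blue for young and red for old, bars are group means, and labels give the distance of each peak's midpoint from the low-coordinate edge of its interval. At 10 of the 11 peaks all old libraries lie above all young ones; the exception is the Hoxb peak in which old replicate 4, at 1.86 CPM, lies among the young libraries.

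Over all 4 clusters, of the 20 peaks with a mean above 10 CPM, 17 had positive log2 fold changes and 3 were called, and their values ran from -0.28 to 1.06. Shares over all peaks at that limit were not computed. Among all peaks with a mean count of at least 50, a near but unlike limit with its own fit, 21.7% were called and 50.3% were positive. The summed level of all 133 peaks was 793, 800, 829 and 728 CPM in old and 704, 685, 686 and 624 CPM in young libraries. All old libraries lay above all young ones, with old replicate 4 the lowest old library. The ratio of means was 1.17, and among the 4 clusters Hoxc had the largest ratio and Hoxa the smallest.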

How the data were processed

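Omni-ATAC-seq libraries made with a Nextera kit were deposited as 1 table of raw counts per peak; per the submitters' processing notes, trimming and alignment to mm9 used Trim Galore and Bowtie2, peaks came from MACS2, and FastQC, Picard and SAMtools were also named, without versions. Peak merging, the counting program and any shift of read ends: not given in the sources used here. Peaks open in only 1 group may be defined by that group, and PCR reads are not independent molecules, so precision follows counts and replicates. The members and lists were chosen with earlier results of these data known. Peaks were kept with filterByExpr (minimum count 10, minimum total 15), leaving 73164, and tested with edgeR 4.0.16 in R 4.3.3 (TMM, robust glmQLFit, group as the only term), which was tested on simulated data. SE is the log2 fold change divided by the root of the F statistic. Coordinates are as in the table and widths count both end bases. Windows took peaks by midpoint. Named were, per cluster, the 5 called peaks of smallest p in each direction, the 3 strongest and the widest; any other is marked. Alternatives used DESeq2 1.42.0, limma 3.58.1, other scalings, filters and thresholds, a replicate block and each library left out. No pair of libraries was duplicated (chi-square per peak at least 1.19).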

Additional observations from a re-analysis of the deposited data

Results flagged for a closer look

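In 72 groups of 4 values, from the cluster sums, the windows and the 21 named peaks, 1 library stood far from the other 3, where chance gives about 1 in 20 groups. At the strongest Hoxa peak, from 52171367 to 52172421 on chromosome 6, young replicate 2 was highest at 46.9 CPM, while the other young libraries had 40.3 to 41.3 CPM. It remained below the lowest old library at 48.1 CPM.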

How the results depend on the processing

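With DESeq2 size factors, total count scaling, loess offsets, limma voom and no filter, 10 to 12 Hox peaks were called higher. The number was 3 with a mean count of at least 50, where 19 Hox peaks were tested, 7 with DESeq2's test and 4 at an adjusted p below 0.01. With 1 library left out it ran from 8 to 15, the highest without old replicate 4. The share of all tested peaks called in either direction, 20.5% in the main fit, moved as well. It was 21.7% with a mean count of at least 50, 14.0% with DESeq2's test and 10.1% at an adjusted p below 0.01. With 1 library left out that share ran from 13.8% to 30.0%, also highest without old replicate 4. No filter gave 1 lower call. Windows called numbered 2 with DESeq2's test, 2 at an adjusted p below 0.01 and 2 to 6 with 1 library left out. Whether replicate numbers pair the libraries was not settled. Correlations of same-numbered deviations were -0.014, 0.0736, 0.0495 and 0.179, and only numbers 2 and 4 correlated best with their own number. For old replicate 4 the largest correlation with another number was 0.0298. The replicate block gave 12 higher and 0 lower peaks and 5 windows, the added window being that of Hoxb from 96100001.

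Values near 0 changed sign. The log2 fold change of the Hoxb peak at 96179465 was -0.000417 with DESeq2 size factors, -0.0264 with total count scaling, -0.0344 with loess offsets, -0.0446 with a mean count of at least 50, -0.000388 with DESeq2's test and -0.0508 to 0.0508 with 1 library left out. That of the Hoxa peak at 52140856 was -0.024 with total count scaling, -0.0415 with a mean count of at least 50 and -0.0899 to 0.147 with 1 library left out. With 1 library left out, the Hoxd peak at 74587283 ran from -0.60 to 0.10 and the Hoxb window at 96000001 from -0.0984 to 0.012. The causes were not tested.

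Log2 ratios of the cluster sums moved by less than the spread between replicates under every alternative run, with 1 library left out from 0.09 to 0.17 in Hoxa, 0.13 to 0.22 in Hoxb, 0.65 to 0.84 in Hoxc and 0.26 to 0.38 in Hoxd. The Hoxc sum without its strongest peak was added after seeing the data. Of the 11 called peaks 6 were called with each library left out in turn. Low counts limit Hoxc and Hoxd most: 20 of 30 and 15 of 29 peaks did not pass the count filter.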
